A study of Mus musculus with 16 samples.

Results

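Astrocyte identity and reactivity genes were examined as 10 genes, taken as the rows of the expression tables whose symbol was Gfap, Vim, S100b, Aldh1l1, Serpina3n, Lcn2, C4b, Cd44, Stat3 or Osmr. All 10 were found, once each, among the 24060 genes of every table. The samples came from the somatosensory cortex of C57BL/6J mice of genotype Aldh1l1CreERT2-RiboTag, aged 3 months, all of which had been given tamoxifen at 2 months. Stressed mice swam for 20 min and recovered in the home cage for 90 min, and naïve mice stayed in the home cage. From each condition, RNA bound to HA-tagged ribosomes (IP) and RNA of the cleared lysate (INPUT) was sequenced, 4 libraries for each of the 4 combinations and 16 in all. Replicate numbers are the library numbers of the study, and each mouse gave a lysate of which a part became INPUT and the rest IP. Which IP and INPUT library belong to the same mouse is not given in the sources used here, so tests across the fractions treat libraries as independent although they share mice. The HA tag is on the ribosomal protein Rpl22 and appears only in cells in which Cre, driven by Aldh1l1 sequences, was active, so the IP reads the mRNA of recombined cells, and Aldh1l1 is both a measured gene and the gene that defines the tagged cells. The labels place the swim 1 month after tamoxifen, the series description 4 weeks and the methods 2 weeks.

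Astrocytes are identified by a few proteins that they hold at high levels, among them the filament protein GFAP, the calcium-binding protein S100B and the folate enzyme ALDH1L1. After injury or inflammation they become reactive: they raise the filaments GFAP and vimentin, the surface receptor CD44 and secreted proteins such as SERPINA3N, LCN2 and complement C4, in large part through cytokines that signal by gp130 receptors, such as the oncostatin M receptor OSMR, to the transcription factor STAT3. Whether a single swim shifts these genes within the time of recovery is the question the stress comparison addresses. IP against INPUT shows how far each gene is enriched on tagged ribosomes. INPUT is RNA of the whole lysate, so this ratio mixes the cells of origin with the share of an mRNA on ribosomes. RNA of other cells carried into the IP also enters it, and these parts cannot be told apart here.

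Reads counted on genes ranged from 16392876 to 25814364 per library (median 21167241), and levels are in CPM, the reads on a gene per 1000000 counted. At this depth 3 reads amounted to at most 0.183 CPM in any library. Markers were compared between IP and INPUT to check the tagged cells. All 25 homeostatic astrocyte genes were higher in IP than in INPUT in naïve mice, and all 10 neuron, 10 microglia and 10 endothelial markers were lower. The other lists were mixed: 1 of 10 oligodendrocyte (Cnp), 1 of 5 oligodendrocyte precursor (Olig1), 2 of 8 mural (Notch3 and Pdgfrb), 2 of 10 fibroblast and meningeal (Col1a2 and Aebp1) and 1 of 5 ependymal and choroid plexus markers were higher in IP. Over all genes tested, 23.7% were higher and 64.0% lower. When libraries were rescaled by the median ratio, 9 of 10 endothelial markers were lower. Then 4 of 10 fibroblast and meningeal and 3 of 5 ependymal and choroid plexus markers were higher. Of the IP libraries, naïve replicate 11 stood apart from its group in corticosteroid targets: Fkbp5, a chaperone gene induced by glucocorticoids, was at 39.8 CPM there and at 5.31 to 8.55 CPM in the other 3. Stress replicate 15 was the highest of its group for 7 of the 9 genes tested. Stress results in IP that change without either library are given beside the result. Of the INPUT libraries, naïve replicate 14 was also high in corticosteroid targets. Fkbp5 was at 49.3 CPM there and at 22.5, 23.9 and 27.1 CPM in naïve replicates 3, 7 and 16.

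The promoter of Gfap is shown because STAT3, to which OSMR signals, binds DNA motifs of the form TTCCNGGAA. The 257 bases run from 250 bases before the RefSeq start of Gfap to the end of the match (GRCm38.p6, chr11:102897194-102897450, minus strand), and capitals mark the match:
Gfap: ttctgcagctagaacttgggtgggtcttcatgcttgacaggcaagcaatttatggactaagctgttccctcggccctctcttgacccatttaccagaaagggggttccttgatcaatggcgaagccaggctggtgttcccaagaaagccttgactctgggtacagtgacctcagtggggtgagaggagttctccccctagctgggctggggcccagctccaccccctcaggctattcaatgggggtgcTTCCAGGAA
The match began 2 bases before the annotated start. Of the 10 genes, 9 had a promoter window of 250 bases before to 50 bases after the start in the RefSeq table (C4b had none), and Gfap was the one gene with this motif, which was present on either strand in 1.15% of 32851 windows. The looser form TTCNNNGAA, which contains the first, was in 8.30% of windows, again in Gfap alone among these genes. Socs3, the feedback inhibitor that STAT3 induces, held the looser form 154 bases before its start (chr11:117969457-117969557, minus strand, capitals mark the match):
Socs3: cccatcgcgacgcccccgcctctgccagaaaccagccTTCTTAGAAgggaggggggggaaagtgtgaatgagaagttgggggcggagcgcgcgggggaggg
For comparison, the 250 bases before the start of Aldh1l1, the gene whose regulatory sequences drive Cre, held neither form (chr6:90550543-90550792, plus strand):
Aldh1l1: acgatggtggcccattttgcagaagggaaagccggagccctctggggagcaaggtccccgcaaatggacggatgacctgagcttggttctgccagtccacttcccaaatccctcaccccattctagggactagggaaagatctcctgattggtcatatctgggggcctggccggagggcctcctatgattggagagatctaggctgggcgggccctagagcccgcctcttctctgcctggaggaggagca
The palindrome to which glucocorticoid receptor dimers bind (GAACA and TGTTC, 3 bases apart) was in 0.0578% of windows and in 0 of the 9. A match of letters is a description of the window and not evidence of binding.

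Within the IP, the identity genes were among the most abundant transcripts and the reactivity genes ranged over several orders of magnitude. Levels of different genes are compared per length, in reads per kilobase of exon per 1000000 counted (RPKM). The length is that covered by all exons of a gene in GENCODE M21, over all its transcripts, whereas reads were counted over RefSeq genes. The order of genes depends on these lengths. In naïve IP, S100b was the highest at 439 ± 40.2 RPKM (SD, n = 4), followed by Aldh1l1 at 204 ± 16.1 and Gfap at 188 ± 16.1 RPKM, whose ranges overlapped. These genes ranked 42, 98 and 115 among the 11966 genes above 1 CPM. Serpina3n came next at 44.4 ± 6.85 RPKM. Stat3, Vim and C4b followed at 13.9 ± 0.435, 13.9 ± 3.18 and 13.6 ± 2.42 RPKM, and overlapped with each other. Below them stood Cd44 at 2.26 ± 0.246 RPKM, Osmr at 0.755 ± 0.112 RPKM and Lcn2 at 0.0532 ± 0.0248 RPKM. In stress IP the order within the overlapping pair and trio changed, and C4b had the highest mean of the trio. In naïve INPUT Serpina3n, at 28.0 ± 1.27 RPKM, stood second after S100b (96.1 ± 8.99 RPKM) and above Aldh1l1 (18.4 ± 1.28 RPKM) and Gfap (16.0 ± 0.798 RPKM), with no overlap between Serpina3n and Aldh1l1. Lcn2 was no longer last per length there, at 0.302 ± 0.193 RPKM beside Cd44 (0.448 ± 0.0745 RPKM) and Osmr (0.267 ± 0.0246 RPKM), whose ranges it overlapped. That place rests on the lengths used, 2623 bases for Lcn2 and 12113 for Osmr. In CPM Lcn2 was last in naïve INPUT, at 0.282 to 1.37 CPM against 2.99 to 3.65 CPM for Osmr. Serpina3n was also second in stress INPUT, at 29.2 ± 2.65 RPKM, without overlap with Aldh1l1.

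**Figure D1:**
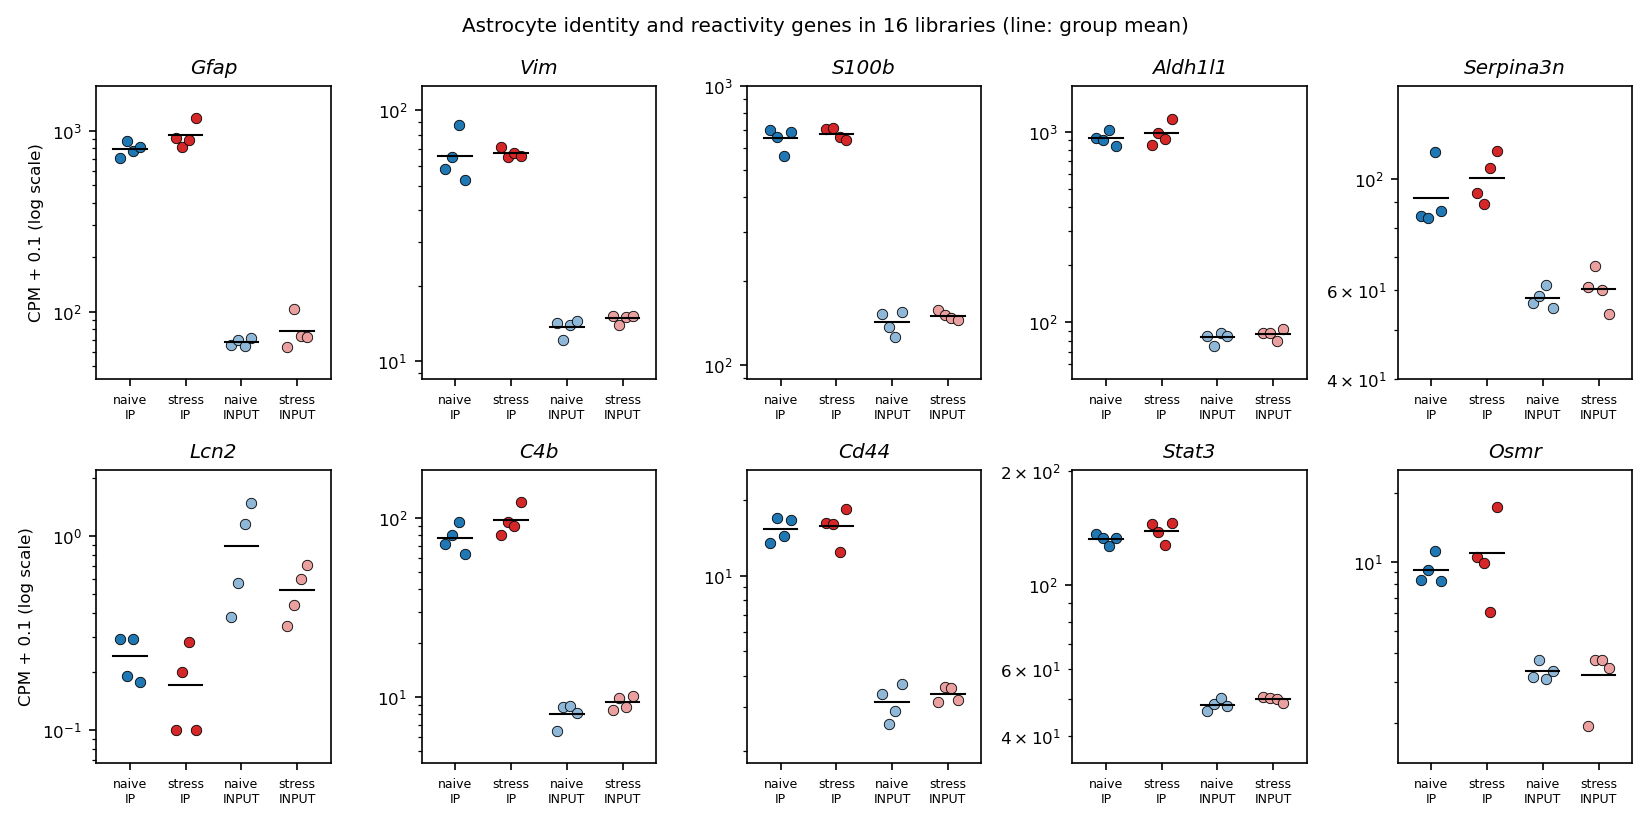
Level of each of the 10 genes in every library, as CPM + 0.1 on a log axis, with 4 points per group and a line at the group mean. For 9 genes both IP groups lie above both INPUT groups, whereas Lcn2 lies below, and naïve and stress points of the same fraction overlap for all 10.

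The identity genes were strongly enriched on tagged ribosomes. Gfap (chr11:102887336-102900912, minus strand), the main filament protein of astrocytes, was at 711, 872, 776 and 814 CPM in naïve IP and at 65.2, 69.8, 64.4 and 71.3 CPM in naïve INPUT. The groups were far apart, with an 11.7-fold difference (log2 3.55 ± 0.07 SE, limma adjusted p = 1.9e-14). Aldh1l1 (chr6:90486427-90600203, plus strand), which encodes a folate enzyme, was at 928, 905, 1015 and 838 CPM in naïve IP against 84.8, 74.7, 87.9 and 84.9 CPM in INPUT. Its difference was 11.1-fold (log2 3.47 ± 0.07, adjusted p = 2.8e-14). S100b (chr10:76253853-76261159, plus strand), the most abundant of the set per length, was at 695, 660, 565 and 686 CPM in IP and at 152, 137, 126 and 155 CPM in INPUT. It was thus enriched less, 4.57-fold (log2 2.19 ± 0.08, adjusted p = 7.5e-12), although its level per length was higher.

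Of the reactivity genes, C4b had an enrichment near that of Gfap and Aldh1l1, and Vim and Cd44 one near that of S100b. C4b (chr17:34728380-34743882, minus strand), which encodes complement component 4, was at 71.6, 80.8, 94.8 and 62.5 CPM in naïve IP and at 6.33, 8.71, 8.78 and 8.09 CPM in INPUT, a 9.57-fold difference (log2 3.26 ± 0.13, adjusted p = 2.5e-11). Its near-identical neighbour C4a was counted at no more than 0.915 CPM in any library, and since only uniquely mapped reads were kept, reads that fit both copies are in neither value. Vim (chr2:13573927-13582826, plus strand), the filament that pairs with GFAP, was at 58.4, 65.3, 87.1 and 52.7 CPM in IP against 14.2, 12.1, 13.8 and 14.3 CPM in INPUT (4.74-fold, adjusted p = 1.1e-09). Cd44 (chr2:102811141-102901665, minus strand), the hyaluronan receptor, was at 13.5, 16.8, 14.3 and 16.5 CPM in IP against 3.28, 2.47, 2.79 and 3.61 CPM in INPUT (4.93-fold, adjusted p = 2.0e-09). For all 3 genes the lowest IP library lay above the highest INPUT library.

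The signalling genes and Serpina3n were enriched the least. Stat3 (chr11:100885098-100939540, minus strand) was at 137, 133, 127 and 133 CPM in naïve IP and at 46.5, 48.5, 50.3 and 47.8 CPM in INPUT, with the narrowest spread of the set (2.74-fold, adjusted p = 8.2e-12). Osmr (chr15:6813577-6874969, minus strand) was at 8.22, 9.09, 11.1 and 8.17 CPM in IP against 3.05, 3.65, 2.99 and 3.26 CPM in INPUT (2.76-fold, adjusted p = 2.2e-07). Serpina3n (chr12:104406729-104414329, plus strand), a secreted inhibitor of serine proteases, was at 84.4, 83.4, 113 and 86.0 CPM in IP and at 56.4, 58.2, 61.2 and 55.2 CPM in INPUT. The groups did not overlap, but the difference was 1.57-fold (log2 0.65 ± 0.09, adjusted p = 1.1e-05). Serpina3n belongs to a cluster of close copies, so that its counting is uncertain where reads are shared; of the 7 other copies looked up, Serpina3m had the highest count, 1.08 CPM at most.

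Lcn2 went the other way. Lcn2 (chr2:32384633-32388252, minus strand), which encodes the iron-carrier protein lipocalin 2 and is a marker of strongly reactive astrocytes, was at 0.196, 0.0896, 0.196 and 0.0775 CPM in naïve IP and at 0.282, 0.471, 1.05 and 1.37 CPM in naïve INPUT, from 0 to 27 reads in any of the 16 libraries. All INPUT libraries lay above all IP libraries of the same condition, in naïve and in stressed mice (exact permutation test, two-sided, p = 0.029 in each, the smallest p that 4 against 4 allows). Over the 4 libraries of a group there were 61 reads in naïve INPUT and 13 in naïve IP, a ratio of 5.93 per read sequenced (95% interval 3.23 to 11.8), and 34 and 6 in stressed mice (6.35, 2.64 to 18.5). The intervals cover counting error only. Its mean was under 1 CPM in each comparison, so it was left out of the fits. Fitted without this minimum, it was lower in IP by 1.74 on the log2 scale (adjusted p = 0.0015, naïve). Neutrophils are known to carry much LCN2, and the 5 of their 6 listed markers that the tables hold were near 0 (Ly6g was not analysed here): the summed level was 0.118 to 0.399 CPM in naïve INPUT and 0.310 to 1.10 CPM in naïve IP. Which cells gave the Lcn2 reads was not tested.

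Thus all 9 genes above the minimum passed the test as higher in IP in naïve mice, where 23.7% of 13339 genes tested were higher and 64.0% lower. The same 9 of 9 were higher in stressed mice, where 23.6% of genes were higher and 62.5% lower. Enrichments in stressed mice were 12.2-fold for Gfap, 11.2-fold for Aldh1l1, 10.3-fold for C4b, 4.64-fold for Cd44, 4.56-fold for Vim, 4.50-fold for S100b, 3.29-fold for Osmr, 2.78-fold for Stat3 and 1.66-fold for Serpina3n. The median gene was lower in IP by 0.64 on the log2 scale in naïve mice. Relative to that median, Serpina3n stood 1.29 higher and Gfap 4.18 higher (log2). When libraries were rescaled by the median ratio, 5599 genes (42.0%) were higher and 5635 lower in naïve mice, and all 9 genes were still called higher. In a bulk sample, fewer cells of a type and less RNA per cell cannot be told apart, which holds for every INPUT level given here.

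**Figure D2:**
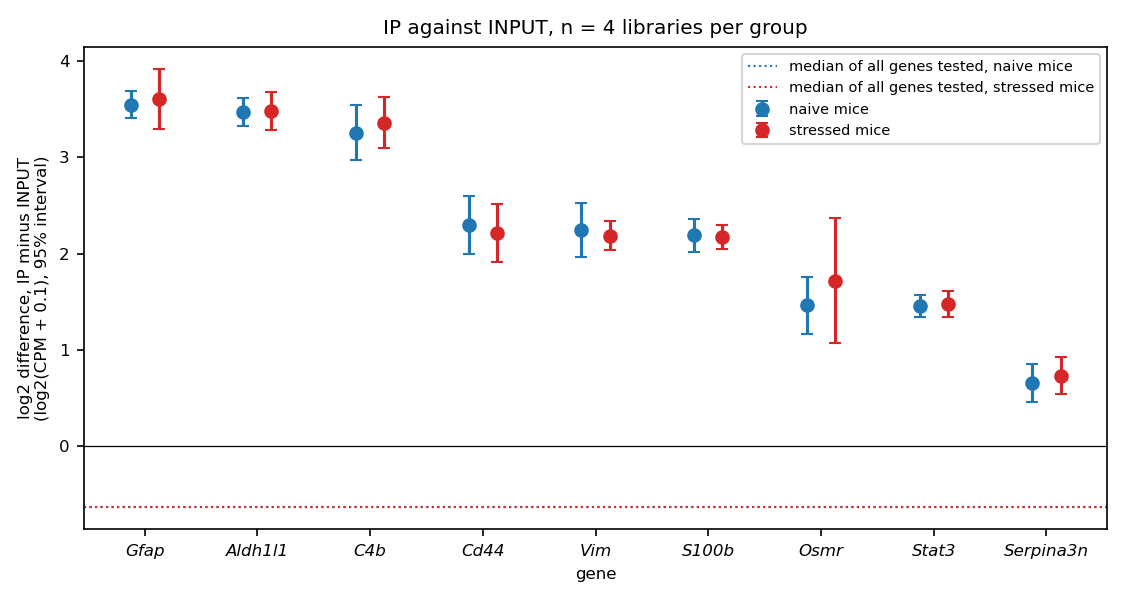
Log2 difference of IP minus INPUT for the 9 genes tested, in naïve and in stressed mice, with 95% intervals from limma and dotted lines at the median over all genes tested. Gfap, Aldh1l1 and C4b lie above 3 and Serpina3n lies lowest, at 0.65 in naïve and 0.73 in stressed mice.

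The ratio of each gene to Aldh1l1 within a library does not depend on library size, and compares enrichment among the genes. Aldh1l1 was itself among the most enriched genes. Only 0.712% of 13339 genes tested in naïve mice and 0.735% of 13333 in stressed mice had a higher difference of IP minus INPUT. A lower ratio to it in IP is therefore what nearly all genes show, and is not particular to this set. For Gfap it was 1.05-fold higher in IP than in INPUT of naïve mice, with overlap ( exact permutation test, two-sided, p = 0.57), and C4b was 1.16-fold lower relative to Aldh1l1 in IP than in INPUT (exact p = 0.17). Each of Vim, S100b, Cd44, Stat3, Osmr and Serpina3n was lower relative to Aldh1l1 in IP than in INPUT, with no overlap (exact p = 0.029 each, 0.038 after Benjamini-Hochberg adjustment over 8 genes). The ratio was 2.34 times lower for Vim, 2.42 for S100b, 2.25 for Cd44, 4.04 for Stat3, 4.02 for Osmr and 7.04 for Serpina3n. In stressed mice the same 6 genes were lower with no overlap, by 2.41 times for Cd44 to 6.74 times for Serpina3n (exact p = 0.029 each), whereas Gfap (exact p = 0.49) and C4b (exact p = 0.086) overlapped.

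As a check on the swim, corticosteroid targets were read in the same libraries. Tsc22d3, which encodes the glucocorticoid-induced leucine zipper, was at 195, 282, 442 and 218 CPM in naïve IP and at 724, 590, 561 and 529 CPM in stress IP (log2 1.14 ± 0.21, limma adjusted p = 0.039). The groups did not overlap, but the call was lost with median ratio rescaling (log2 1.15, adjusted p = 0.063) and with quantile normalization (1.13, adjusted p = 0.059). Fkbp5 was at 6.36, 8.55, 39.8 and 5.31 CPM in naïve IP and at 71.8, 29.7, 28.2 and 20.1 CPM in stress IP. With its naïve value in replicate 11 inside the stress range, it did not pass (log2 1.67 ± 0.55, adjusted p = 0.40). Sgk1, a kinase gene, had a log2 difference of 0.25 ± 0.21 in IP (adjusted p = 0.80) and of 0.63 ± 0.14 in INPUT (adjusted p = 0.20). Its naïve INPUT value in replicate 14, 123 CPM, lay inside the stress INPUT range of 118 to 139 CPM.

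None of the astrocyte identity and reactivity genes passed the test in IP. Of the 9 tested, 0 were called by limma, 2 had an unadjusted p under 0.05, and 0 were called by limma-voom. Over all 12501 genes tested, 55 were called by limma (0.440%), 27 higher (0.216%) and 28 lower (0.224%), and 1034 (8.27%) had an unadjusted p under 0.05. No gene of the set had groups that did not overlap, a separation that 5.00% of all genes showed. With all libraries the 9 differences were above 0, with a median of 0.08 (range 0.03 to 0.32, log2), while the median over all genes was close to 0. The shared sign depended on single libraries. Without stress replicate 15 the difference was -0.008 for Aldh1l1, -0.048 for Cd44 and -0.096 for Osmr. Without naïve replicate 11 it was -0.007 for S100b.

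C4b and Gfap had the 2 largest differences. C4b was at 80.7, 94.4, 89.8 and 123 CPM in stress IP, where the naïve libraries reached 94.8 CPM, a difference of 1.25-fold (95% interval 1.01 to 1.55, log2 0.32 ± 0.14, limma adjusted p = 0.57). Gfap was at 915, 811, 888 and 1174 CPM in stress IP, where the naïve libraries reached 872 CPM, a difference of 1.19-fold (1.01 to 1.39, log2 0.25 ± 0.10, limma adjusted p = 0.56). By exact permutation test, two-sided, p was 0.20 for C4b and 0.086 for Gfap. In both, stress replicate 15 was the highest of the 8 libraries. Without it the log2 difference was 0.20 for C4b and 0.14 for Gfap, and without naïve replicate 11 it was 0.43 and 0.24. Relative to Aldh1l1 in the same library, C4b was 1.19-fold higher in stress IP with no overlap (exact permutation test, two-sided, p = 0.029, 0.23 after adjustment over 8 genes) and Gfap 1.12-fold higher with overlap (exact p = 0.20).

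The other 7 genes had small differences whose intervals included 0. Serpina3n was at 93.8, 89.2, 105 and 113 CPM in stress IP (log2 0.14, 95% interval -0.09 to 0.37), against 84.4, 83.4, 113 and 86.0 CPM in naïve IP, where replicate 11 gave the one high value. Without that library the difference was 0.24. Osmr was at 10.4, 9.81, 5.98 and 17.2 CPM in stress IP (log2 0.16, -0.39 to 0.70), the widest spread of the set, and its difference was -0.10 without replicate 15. Aldh1l1 was at 848, 982, 917 and 1162 CPM (log2 0.08, -0.12 to 0.28) and Stat3 at 145, 138, 128 and 146 CPM (log2 0.07, -0.06 to 0.20). The upper end of the 95% interval for Stat3 was a rise of 1.15-fold, without adjustment for the number of genes. S100b, at 706, 708, 657 and 640 CPM (log2 0.06, -0.10 to 0.22), Vim, at 71.4, 64.9, 67.7 and 65.9 CPM (0.06, -0.21 to 0.33), and Cd44, at 16.1, 16.0, 12.4 and 18.3 CPM (0.03, -0.24 to 0.30), overlapped the naïve libraries. Lcn2 had 0, 2, 4 and 0 reads in stress IP, and 13 reads against 6 over the groups do not separate naïve from stress IP (ratio 2.06, 95% interval 0.731 to 6.61, counting error only).

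**Figure D3:**
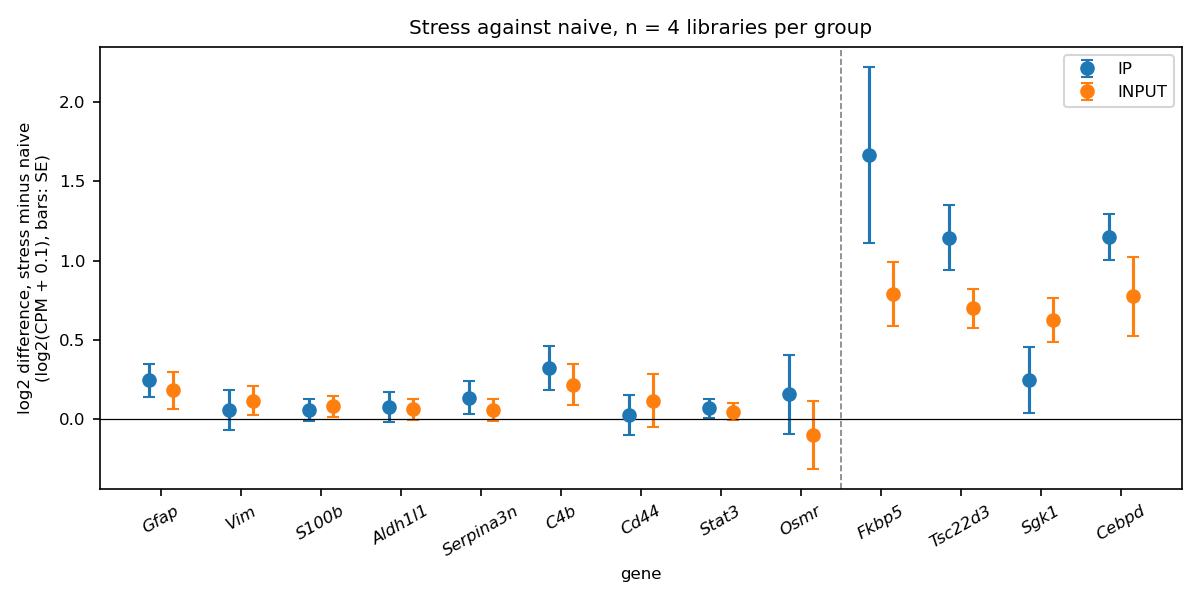
Log2 difference of stress minus naïve in IP and in INPUT, with bars of 1 SE, for the 9 genes tested (left of the dashed line) and for Fkbp5, Tsc22d3, Sgk1 and Cebpd (right). The set stays between -0.10 and 0.32, whereas Fkbp5, Tsc22d3 and Cebpd in IP lie above 1, Fkbp5 without passing the test.

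In INPUT, which holds all cell types, 0 of the 9 genes were called by limma and 0 by limma-voom, against 6 of 13577 genes (0.0442%) by limma. Of the 9, 0 had an unadjusted p under 0.05, against 5.03% of all genes. None had groups that did not overlap (2.87% of all genes). Gfap was at 63.5, 103, 73.0 and 72.4 CPM in stress INPUT against 64.4 to 71.3 CPM in naïve INPUT (log2 0.18, 95% interval -0.07 to 0.43, adjusted p = 0.99). Replicate 9 was the highest, and without it the difference was 0.04. C4b was at 8.42, 9.82, 8.72 and 10.0 CPM (log2 0.22, -0.05 to 0.49, adjusted p = 0.99). Vim had a difference of 0.12, Cd44 0.12, S100b 0.08, Aldh1l1 0.06, Serpina3n 0.06, Stat3 0.05 and Osmr -0.10, each with an interval that included 0. Lcn2 was at 0.244, 0.342, 0.502 and 0.607 CPM in stress INPUT, with 3 of 4 values inside the naïve range and replicate 1 below it, and its fitted difference without the minimum was -0.63 ± 0.41 (adjusted p = 0.96). Over the groups there were 61 reads in naïve INPUT and 34 in stress INPUT, a ratio of 1.92 (95% interval 1.25 to 3.02). That interval covers counting error only and not the spread between libraries, which overlapped.

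A difference between fractions in the response to stress was not called for any of these genes. The difference between the stress effect in IP and that in INPUT was tested on all 16 libraries, and 0 of 9 were called, against 3 of 13341 genes (0.0225%). It ranged from -0.09 for Cd44 (95% interval -0.50 to 0.32) to 0.25 for Osmr (-0.49 to 0.99). For Gfap it was 0.06 (-0.30 to 0.42) and for C4b 0.10 (-0.30 to 0.51). The intervals of the low genes Osmr and Cd44, which had 30 to 455 reads per library, were the widest.

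**Figure D4:**
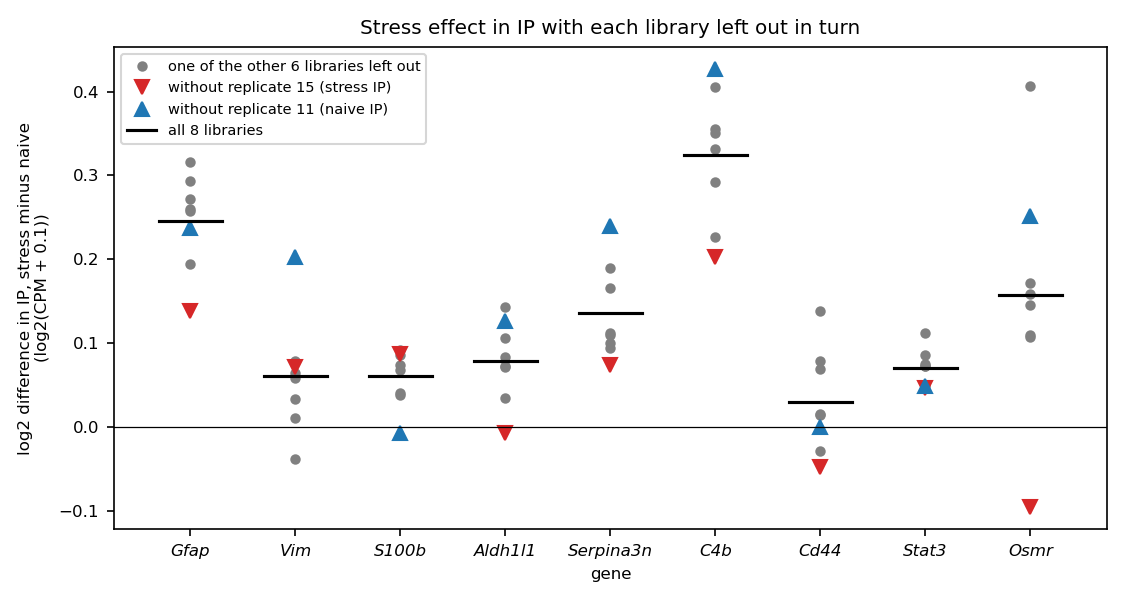
Log2 difference of stress minus naïve in IP for the 9 genes tested, with all 8 libraries (line) and with each library left out (points). Without stress replicate 15, the value goes from 0.25 to 0.14 for Gfap, 0.32 to 0.20 for C4b and 0.16 to -0.10 for Osmr; without naïve replicate 11, from 0.06 to 0.20 for Vim.

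The families of the 10 genes were split between IP and INPUT. Over all 13339 genes tested in naïve mice, 23.7% were higher in IP and 64.0% lower, and 42.0% were higher with median ratio rescaling. These shares stand beside the counts of every list below, so an excess of lower genes is not particular to a family. Of 11 intermediate filament and lamina genes tested in naïve mice, Gfap and Vim were higher in IP and 9 were lower. The neurofilament genes Nefl (log2 -3.76) and Nefm (-3.59) were the lowest. Synemin (Synm) and nestin (Nes), which can join GFAP and vimentin filaments, were also lower (-1.79 and -0.75), but Nes lost its call under median ratio rescaling (-0.12, adjusted p = 0.51) and turned positive under quantile normalization (0.21, adjusted p = 0.24). Of 7 S100 genes, 6 were higher, led by S100a1 (2.33) and S100a13 (2.23), and S100a10 was lower (-1.64), with S100a6 the weakest of the higher ones (0.60). With median ratio rescaling the filament genes split into 2 higher and 8 lower, and the S100 genes again into 6 and 1. In stress against naïve, 0 of 11 filament and 0 of 7 S100 genes were called in IP, and 0 of 12 and 0 of 6 in INPUT.

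Complement genes had ratios far to both sides, in counts near the shares over all genes. Of 14 tested in naïve mice, 3 were higher in IP, namely C4b (3.26), the initiating protease gene Masp1 (1.73) and C2 (1.69), and 10 were lower. The C1q genes, which microglia express, were among the lowest of any list, with C1qb at -4.67 and C1qa at -4.47. C3, the central component, had 1 to 9 reads per library and was not tested. Among 8 serine protease inhibitors, 5 were higher, led by Serpine2 (3.03) and the collagen chaperone gene Serpinh1 (2.44), and 2 were lower, Serpini1 (neuroserpin, -4.38) and Serping1 (-0.62), the latter not under either rescaling. After median ratio rescaling 3 complement genes were higher and 9 lower, and 6 inhibitor genes were higher and 1 lower. None of 11 complement or 8 inhibitor genes was called for stress in IP, and none of 14 and 8 in INPUT. Among the complement genes C1qb had the smallest unadjusted p after C4b in IP (log2 0.33, adjusted p = 0.73), and among the inhibitor genes Serpinb9 (log2 0.27, adjusted p = 0.52) and Serpinf1 (0.24, adjusted p = 0.63) had the smallest.

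**Figure D5:**
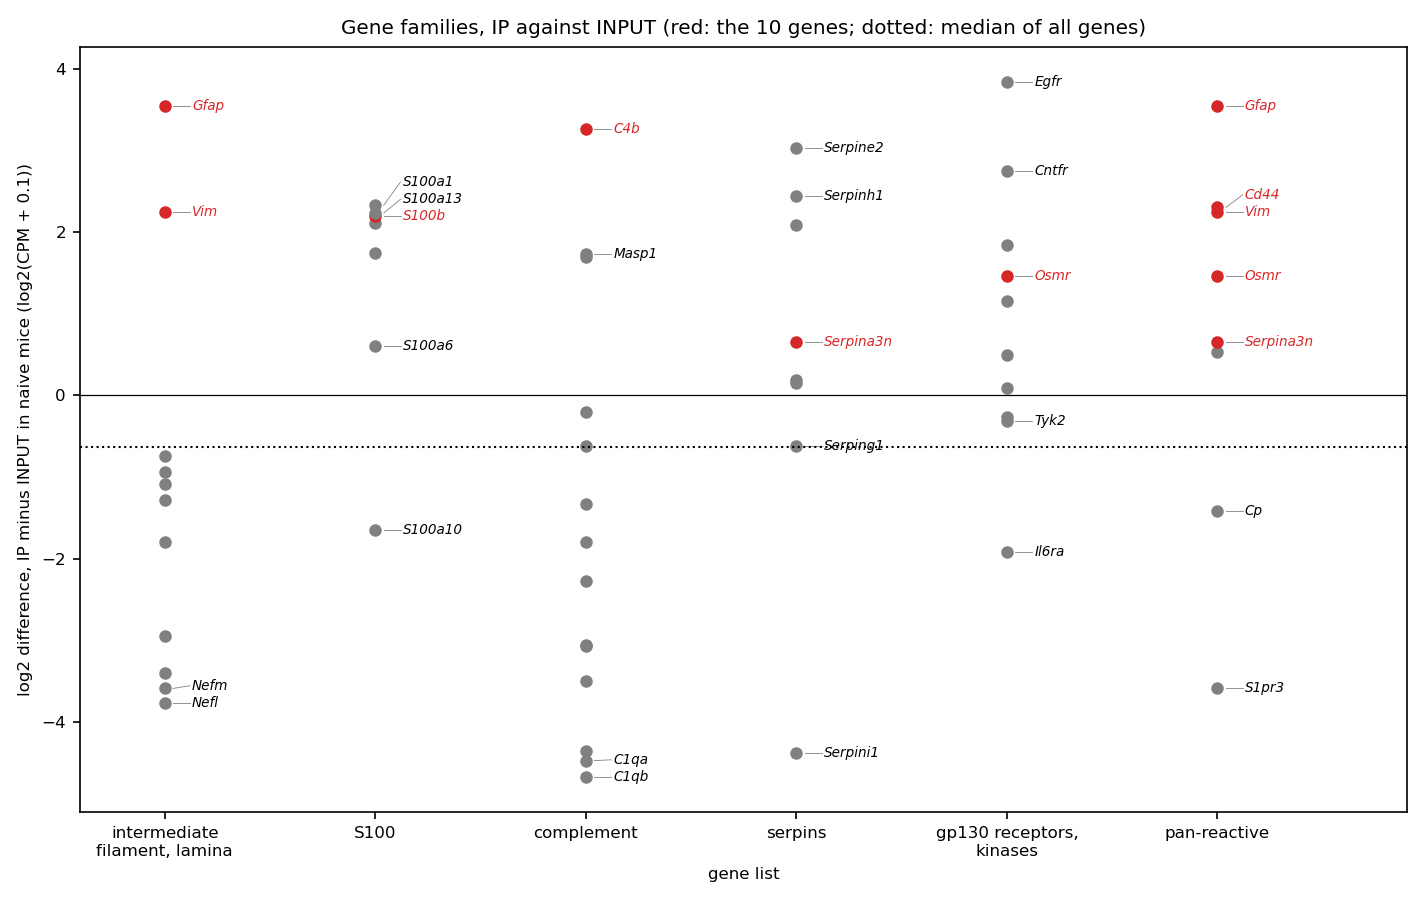
Log2 difference of IP minus INPUT in naïve mice for the tested genes of 6 families, each point 1 gene, with the genes of the set in red, names for these and for the 2 highest and 2 lowest of each family, and a dotted line at the median over all genes. Gfap and Vim stand above the other filament genes, and C4b lies far above the C1q genes.

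The pathway from oncostatin M to STAT3 was present in tagged cells on the receptor side and nearly absent on the ligand side. The ligand genes Osm and Il6 had 0 to 4 and 0 to 3 reads per library, and of 8 ligands only Ctf1 and Lif reached the minimum in a comparison. Of 10 receptor and kinase genes, 6 were higher in IP in naïve mice. Il6st, which encodes the shared subunit gp130, was at 373 to 387 CPM in naïve IP and 95.2 to 113 CPM in INPUT, and Egfr (3.84) and Cntfr (2.75) were the most enriched. The subunit gene Il6ra was lower (-1.91). Of the 7 STAT genes, Stat5a (3.07) and Stat3 were the highest and Stat4 (-3.36) and Stat6 (-2.31) the lowest. Socs2 (-2.83) and Cish (-2.60) were the lowest of 9 inhibitor genes, of which 1 was higher and 7 lower. Counts of this pathway depended on the scaling: with median ratio rescaling 9 receptor and kinase genes were higher and 1 lower, 5 STAT genes higher and 2 lower (4 and 3 as deposited), and 4 inhibitor genes higher and 4 lower. Socs3, whose product limits STAT3 signalling, was at 0.493 to 0.659 CPM in naïve IP and 0.228 to 1.03 CPM in stress IP, under the minimum, and at 2.71 to 3.99 and 3.25 to 4.82 CPM in INPUT.

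Among the genes listed for this pathway and its targets, 1 was called for stress in IP with all libraries, the target Cebpd. Whether STAT3 had a part in its rise was not tested. In IP, 0 of 2 ligand, 0 of 9 receptor and kinase, 0 of 6 STAT and 0 of 6 inhibitor genes were called. Cntfr, the receptor subunit gene for ciliary neurotrophic factor, had a log2 difference of -0.22 (adjusted p = 0.40). Of 13 STAT3 targets tested, Cebpd, a transcription factor gene that is also induced by glucocorticoids, rose: it was at 4.11, 5.51, 5.60 and 4.84 CPM in naïve IP and at 11.4, 13.9, 10.4 and 9.44 CPM in stress IP, with no overlap (log2 1.15 ± 0.15, adjusted p = 0.0054). In INPUT its difference was 0.78 ± 0.25 (adjusted p = 0.64). Without naïve replicate 11, Cebpb and Bcl6 were called as well. None of 15 targets was called in INPUT, where Fos had the smallest unadjusted p (log2 1.14, adjusted p = 0.40).

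Lists of genes that mark reactive astrocytes after injury or inflammation reached the minimum in part and gave no stress calls with all libraries. Of 13 pan-reactive genes, 7 reached the minimum in IP and 0 were called (median log2 difference 0.06). Steap4, Timp1 and Cxcl10 reached it in no comparison. This list shares Gfap, Vim, Serpina3n, Cd44 and Osmr with the set, so in IP it adds only Cp and Aspg to the genes tested above. Of 12 genes of the class called A1, after lipopolysaccharide, 9 were tested and 0 called (median 0.08). This list includes Fkbp5, which had its largest difference, followed by the glycosyltransferase gene Ggta1 (log2 0.48, adjusted p = 0.55). Without naïve replicate 11, Fkbp5 was called. Of 12 genes of the class called A2, after ischaemia, 4 were tested and 0 called (median -0.09), with Sphk1 at -0.63 (adjusted p = 0.68) and Ptgs2 at -0.14 (adjusted p = 0.93). In INPUT 9, 11 and 5 genes of the 3 lists were tested, and 0 were called. In naïve mice 5 of 8 pan-reactive, 2 of 10 A1 and 0 of 5 A2 genes were higher in IP, and 6, 4 and 1 with median ratio rescaling. The 5 pan-reactive genes were those shared with the set. Amigo2 (2.04) and Ggta1 (1.19) were the A1 genes higher in IP, while H2-T23 (-2.94), Ptgs2 (-3.27) and S1pr3 (-3.58) were among the lowest.

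Beyond these families, a few listed genes passed the stress test. Of the 25 homeostatic astrocyte genes, 1 was called for stress in IP: Sox9, a transcription factor gene of astrocytes, fell by 0.65 on the log2 scale (adjusted p = 0.0062), with 291 to 348 CPM in naïve IP and 181 to 232 CPM in stress IP. In INPUT its difference was -0.55 ± 0.12 (adjusted p = 0.19). Of 13 glucocorticoid targets 2 were called in IP, Tsc22d3 and Nfkbia, the gene of an inhibitor of NF-kB (log2 1.14 ± 0.19, adjusted p = 0.025). Nfkbia kept its call under median ratio rescaling (adjusted p = 0.034) and quantile normalization (adjusted p = 0.042), so that 1 of 13 was called under either. Without naïve replicate 11, 7 of 13 were called, while calls over all genes went from 55 to 122. Without stress replicate 15, 4 of 13 were called, with 42 higher and 59 lower over all genes. In INPUT 0 of 13 were called by limma, and 10 had an unadjusted p under 0.05, against 5.03% of all genes. Without naïve INPUT replicate 14, calls over all genes in INPUT went from 6 to 32. Of 8 immediate early genes tested in IP, Nr4a1 rose (1.45, adjusted p = 0.0033) and Jun fell by 0.82 (adjusted p = 0.044, but 0.059 with quantile normalization), and Fosb rose in INPUT (1.13, adjusted p = 0.0018).

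Markers of other cell types were read beside the set. Endothelial markers summed to 18.1 to 29.1 CPM in naïve IP and 16.2 to 18.5 CPM in stress IP, and to 105 to 150 CPM and 87.5 to 120 CPM in INPUT. None of 6 and 10 tested was called, with medians of -0.35 and -0.25 (log2). Neuron markers summed to 702 to 900 CPM in naïve IP and 563 to 816 CPM in stress IP (0 of 10 called, median -0.24). Without stress replicate 15, Snap25 was called lower (log2 -0.46, adjusted p = 0.047) and the median was -0.34. Fibroblast and meningeal markers, of cells that also express Vim, Cd44 and Osmr, were at 268 CPM in naïve IP replicate 11 with 117 to 158 CPM for replicates 2, 8 and 13, 96.2 to 170 CPM in stress IP and 165 to 222 CPM in INPUT (0 of 9 called in IP, 0 of 10 in INPUT). Microglia markers summed to 22.9 to 29.7 CPM in naïve IP and to 23.1 to 33.8 CPM in stress IP, where replicate 15 was the highest (0 of 6 called). The other marker lists also gave 0 called in either stress comparison, and choroid plexus and ependymal markers were at 135 CPM in naïve IP replicate 2 against 14.3 to 21.8 CPM in the other IP libraries. The part of these cells in the levels of the set was not tested.

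Genes whose level followed each gene most closely over the 16 libraries were found by Pearson's r of log2(CPM + 0.1) among 13341 genes. The values are a description, since they rest mainly on the difference between IP and INPUT and the INPUT and IP libraries share mice. Bmpr1a, the water channel gene Aqp4 and Ppp1r3c were nearest to Gfap (r = 0.997, 0.996 and 0.996), and Pygb, Add3 and Egfr to Aldh1l1 (0.999 each). Psd2, Elovl5 and Ptn were nearest to S100b (0.999, 0.998 and 0.998), Gnai3, Stom and Trp53bp2 to C4b (0.997, 0.996 and 0.995), and Gabrb1, Pdlim5 and Phkb to Stat3 (0.998, 0.998 and 0.997). Heph, Scara3 and Ppp2r3a were nearest to Vim (0.996 each) and Sc5d, Tor1aip2 and Pfn4 to Cd44 (0.993 each). The genes with the smallest enrichment or the fewest reads had the loosest neighbours, Efr3b, Slc35a5 and Hey2 for Serpina3n (0.972, 0.970 and 0.970) and Heyl, Grin3a and Hhip for Osmr (0.970, 0.968 and 0.967).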

How the data were processed

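RNA from IP and INPUT samples was depleted of ribosomal RNA and sequenced from both ends. STAR alignments to mm10 were counted by the authors by HTSeq over RefSeq genes, where a read mapped to 1 place. The authors deposited log2 CPM values for 24060 genes in each library, not divided by gene length. These log2 values have a floor at -6.40. Without the constant behind it they sum to 1000000 and give whole reads for 100% of values (tolerance 0.1 reads). The submitters' processing notes also name edgeR and limma, with no versions.

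Differences were fitted in limma 3.58.1 under R 4.3.3, its prior variance following mean expression (eBayes). Values were log2(CPM + 0.1), and a gene needed an average above 1 CPM across the libraries of its comparison. Genes with a Benjamini-Hochberg adjusted p under 0.05 over all genes tested were called. A fold change on this scale understates the change of low genes. Exact permutation tests were two-sided over 70 labelings of 8 libraries, and p-values measure the spread between libraries, each taken as independent, also where IP and INPUT came from the same mice. Limma-voom on the whole reads called 49 genes for stress in IP and 5 in INPUT. On simulated reads for stress against naïve in IP (12512 genes), 98% of changes of 1.5-fold were recovered, 98 of 100 genes, with 9 false calls. Each simulated gene was given the same spread, the median over genes in naïve IP, and no simulated library stood apart. The share recovered therefore does not apply to genes or libraries that vary more. The genes of the set, the gene lists and the tests were chosen with earlier results of these data known. The rule for named genes took from each list those past the threshold for stress (at most 6) or, where none passed, the 2 of smallest unadjusted p, and for IP against INPUT the 2 highest and 2 lowest ratios; not all are printed, and some items are not reported here. Nes, Synm, C2, C3, Il6, Osm, Il6st, Socs3, Cebpb, Bcl6, Steap4, Timp1, Cxcl10, Snap25 and Hes5 were outside it and chosen after their values were seen. Alternatives were pseudocounts of 1 and 0.01, no minimum, a minimum of 5 CPM, median ratio rescaling, quantile normalization, whole reads fitted by limma-voom, no variance trend, array weights, all libraries in one model and each library left out. The lists without replicates 11 and 15, and the ratio to Aldh1l1, were added after seeing the data. Gene positions and exon lengths are from GENCODE M21 on GRCm38 (mm10), and promoters from RefSeq on GRCm38.p6. Reads after PCR are not independent molecules, so counting intervals cover counting error only. The methods list male and female mice in equal number, and sex was not used in any fit. How the sexes fall across the groups is not given here. Python 3.11.15, NumPy 2.4.6, pandas 2.3.3, SciPy 1.17.1 and matplotlib 3.10.9 made tables and plots.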

Additional observations from a re-analysis of the deposited data

Results flagged for a closer look

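Each of the 10 genes was checked in each of the 4 groups of 4 libraries for a library far from the other 3 by Dixon's ratio. Of 40 groups checked, 2 had such a library, and chance alone gives about 1 in 20, or 2.0 here. Serpina3n in naïve IP replicate 11 was at 113 CPM, against 83.4 to 86.0 CPM in the other 3 libraries. Without that library the log2 difference of stress minus naïve in IP was 0.24 (0.14 with it). Osmr in stress INPUT replicate 1 was at 1.83 CPM, against 3.37 to 3.65 CPM in the other 3, and without it the log2 difference in INPUT was 0.13 (-0.10 with it). The cause was not tested for either.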

How the results depend on the processing

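The number of genes of the set called was 0 for stress in IP, for stress in INPUT and for the difference between both under all 18, 18 and 25 alternatives, and 9 to 10 for IP against INPUT in naïve and in stressed mice, where the tenth was Lcn2 without a minimum. Over all genes, the stress calls ran from 17 to 143 in IP and from 0 to 50 in INPUT. Signs changed only for uncalled differences. With array weights, stress in IP was -0.082 for Cd44 and -0.005 for Osmr, and the difference between fractions was 0.023 for Vim, 0.011 for S100b and -0.015 for Stat3. With quantile normalization that difference was -0.011 for Aldh1l1. With 1 library left out, stress in IP ran from -0.039 to 0.203 for Vim, -0.007 to 0.092 for S100b, -0.008 to 0.143 for Aldh1l1, -0.048 to 0.138 for Cd44 and -0.096 to 0.407 for Osmr. Stress in INPUT ran from -0.187 to 0.132 for Osmr. The difference between fractions ran from -0.044 to 0.206 for Gfap, -0.156 to 0.086 for Vim, -0.090 to 0.034 for S100b, -0.072 to 0.079 for Aldh1l1, -0.016 to 0.210 for C4b, -0.174 to 0.020 for Cd44 and -0.003 to 0.063 for Stat3. The cause was not tested. No paired analysis was possible because no library number is shared between groups, although IP and INPUT came from the same mice. Depth limits Lcn2, at 27 reads or fewer, and the spread between 4 libraries limits the rest.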

Other observations

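Further groups around the set are given as values. Of 13 folate one-carbon genes tested with Aldh1l1 in naïve mice, 6 were higher in IP and 6 lower (7 and 2 with median ratio rescaling), Mthfd1 (log2 1.84) being the highest after Aldh1l1, and Mthfd1l (-2.39) the lowest. Mthfd2, which encodes a mitochondrial enzyme of this pathway, rose with stress in IP (log2 1.60 ± 0.25, limma adjusted p = 0.018) and had a difference of 0.35 in INPUT (adjusted p = 0.98). Of 9 ligand and partner genes of CD44, 5 were higher in IP (7 with median ratio rescaling), led by the membrane linker gene Ezr (3.64) and the hyaluronidase gene Hyal1 (3.24), and Has3 (-2.88) and Hmmr (-2.78) were the lowest. None was called for stress in IP or INPUT, where Mmp14 (-0.34, adjusted p = 0.55) and Hmmr (-0.37, adjusted p = 0.99) had the smallest unadjusted p. Of 15 astrocyte transcription factor genes, 14 were higher in IP in naïve mice (15 with median ratio rescaling), led by Rfx4 (4.13) and Sox9 (4.01), with Nfix (0.14) the lowest, and Otx1 fell with stress in IP by 0.61 (adjusted p = 0.018) beside Sox9. Without stress replicate 15, Hes5 was called lower as well (log2 -1.09, adjusted p = 0.0092).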
